A study of Mus musculus with 9 samples.

Results

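The 8 genes described here encode regulators and effectors of small GTPases and of heterotrimeric G proteins: Rasgef1b, Rasd1, Gem, Rgs2, Rgs16, Cdc42ep2, Cdc42ep3 and Cdc42ep4. They were taken by name from 19938 genes with a single-symbol probe, and each of the 8 had 1 such probe. Rasgef1b and Cdc42ep3 were chosen by their measured forskolin change against control on these arrays, a rise and a fall, so their forskolin values are a description with no test, and the other 6 were tested. Those 6 genes and their tests were also chosen with earlier results of these data known. The cells were MA-10, a mouse Leydig tumour line that makes steroids when cAMP rises. For 1.5 h in serum-free medium 3 samples received 10 µM forskolin with 1 mM AICAR, 3 received 10 µM forskolin, and 3 received the DMSO vehicle and are called control. All 9 RNA samples thus came from 1 line kept without serum, and no group with AICAR alone was analysed here. Values are log2 summaries of Affymetrix whole-transcript arrays, 1 array per sample.

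The arrays had medians between 7.14 and 7.19, and all 7 measured Leydig cell markers of 9 listed had control means above them, from 8.58 for Star to 11.92 for Hsd3b6. Of 6 measured Sertoli cell markers, Dhh (8.41) and Sox9 (9.88) were above the medians and the other 4 were between 6.39 and 7.03. Of 5 germ cell markers Ddx4 (7.38) was above them and the others were between 4.12 and 5.99, and of 5 macrophage markers Cd68 (7.74) was above them and the others were between 4.75 and 6.62. Of 4 endothelial markers Cdh5 (11.97) was above them and the others were between 5.18 and 6.35. Array weights estimated from the spread were lowest for AICAR replicates 1 and 3 (0.354 and 0.318) and highest for forskolin replicate 2 (3.46). The labels do not say that replicates were separate cultures, and p-values then measure only the spread between these samples.

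Small GTPases switch between a form bound to GTP, which binds effectors, and a form bound to GDP. Exchange factors such as Rasgef1b load GTP, and GTPase-activating proteins end the signal. RGS proteins do the latter for the alpha subunits of heterotrimeric G proteins, through which hormone receptors raise or lower cAMP. In Leydig cells, luteinizing hormone acts through cAMP to drive steroid synthesis, and forskolin raises cAMP directly by activating adenylyl cyclase. AICAR is converted in cells to ZMP, which resembles AMP and switches on the energy-sensing kinase AMPK.

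Promoter sequence is shown for 3 of the 8 genes, the 2 picked for opposite forskolin responses and Rgs2, which holds the most copies of the searched cAMP motif. The windows are the 250 bases before the RefSeq start site in GRCm38.p6, all on the minus strand, at chr5:99252928-99253177 for Rasgef1b, chr17:79355092-79355341 for Cdc42ep3 and chr1:144004150-144004399 for Rgs2. They are written 5′ to 3′ along the gene, and capitals mark the core of the cAMP response element, TGACG or its reverse complement CGTCA.
Rasgef1b: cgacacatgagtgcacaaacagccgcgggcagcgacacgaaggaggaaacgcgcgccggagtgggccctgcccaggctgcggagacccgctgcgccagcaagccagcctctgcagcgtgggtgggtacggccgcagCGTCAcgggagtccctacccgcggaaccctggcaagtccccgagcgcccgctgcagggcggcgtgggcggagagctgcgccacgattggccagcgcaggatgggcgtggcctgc
Cdc42ep3: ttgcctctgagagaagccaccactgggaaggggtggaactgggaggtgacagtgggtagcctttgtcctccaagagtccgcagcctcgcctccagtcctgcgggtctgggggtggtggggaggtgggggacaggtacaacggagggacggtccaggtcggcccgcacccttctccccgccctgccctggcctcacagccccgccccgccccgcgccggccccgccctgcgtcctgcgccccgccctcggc
Rgs2: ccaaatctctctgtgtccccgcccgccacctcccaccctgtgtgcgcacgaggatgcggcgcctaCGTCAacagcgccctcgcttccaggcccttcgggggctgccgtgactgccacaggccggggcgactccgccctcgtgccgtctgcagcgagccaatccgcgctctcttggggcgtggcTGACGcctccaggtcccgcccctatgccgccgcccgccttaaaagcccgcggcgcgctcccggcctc
Rasgef1b held 1 core, starting 114 bases before the start site, and Rgs2 held 2, starting 185 and 67 bases before it. None was found in the windows of Cdc42ep2, Cdc42ep3, Cdc42ep4 or Rgs16, and those of Rasd1 and Gem were not analysed here. The core occurs in 17.8% of all 32851 windows, and at least 2 copies in 3.9%. The full element TGACGTCA, which contains the core on both strands, occurs in 1.55% of windows, and the serum response element known as the CArG box in 1.47%. Neither was in a window of the 6 members searched. The 3 printed windows each had a GC content of 72.4%, against a median of 52.4% over all windows. The other member windows searched lay between 61.2% (Cdc42ep2) and 66.4% (Rgs16). The shares of all windows given above were not matched for GC content. A match describes letters only.

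Rasgef1b, an exchange factor that in human cells acts on Rap2 GTPases, had log2 values of 8.76, 8.58 and 8.58 with forskolin and AICAR, 8.69, 8.96 and 8.97 with forskolin, and 7.31, 7.49 and 7.73 in control. Every array that received forskolin, with or without AICAR, lay above every control array, and the 2 treated groups overlapped. The forskolin mean of 8.87 ± 0.16 stood against 7.51 ± 0.21 in control (SD, n = 3 each), a 2.57-fold higher level (log2 difference 1.36, SE 0.11). Of 19938 genes it had the sixth largest forskolin difference. With AICAR added the mean was 8.64 ± 0.10, a log2 difference of −0.23 (SE 0.11) from forskolin, and the level was 2.19-fold above control (log2 difference 1.13, SE 0.11). All 3 comparisons share arrays with the choice of this gene, so none is a test of it.

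Gem, a GTPase of the RGK group that binds calcium channel beta subunits and lowers channel activity, was higher on all forskolin arrays than on all control arrays. Its log2 values were 8.51, 8.15 and 8.52 with forskolin and AICAR, 8.54, 8.56 and 8.71 with forskolin, and 7.86, 8.17 and 8.03 in control. Forskolin against control gave a 1.49-fold higher level (log2 difference 0.58, SE 0.11, 95% interval 0.33 to 0.83), which missed the threshold in limma with Benjamini-Hochberg adjustment over all genes (adjusted p = 0.064). This was the 34th largest forskolin difference of all genes. Without AICAR replicate 2, which enters only through the shared estimate of spread, the same difference passed (limma adjusted p = 0.02). It also did so with quantile normalization, with a trended and robust prior and with array weights (limma adjusted p = 0.045, 0.027 and 0.017), and at a threshold of 0.10. In the other 15 of 20 alternatives it was not called, with a limma adjusted p of up to 0.23.

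The AICAR arrays of Gem all lay below the forskolin arrays, replicate 2 at 8.15 by the widest margin and replicates 1 and 3, at 8.51 and 8.52, just below the lowest forskolin array at 8.54. Forskolin with AICAR differed from forskolin by a log2 value of −0.21 (SE 0.11, 95% interval −0.45 to 0.04, limma adjusted p = 0.28). Against control it was 0.37 higher (SE 0.11, 95% interval 0.12 to 0.62, limma adjusted p = 0.066), and AICAR replicate 2 fell within the range of the controls. Without that array the log2 difference from control was 0.50 (limma adjusted p = 0.025) and that from forskolin −0.08. With array weights the values moved the other way, to 0.17 from control (adjusted p = 0.21) and −0.35 from forskolin (adjusted p = 0.019), and with quantile normalization the difference from forskolin was −0.13. Array weights called 5729 of all 19938 genes in the comparison with forskolin.

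Rasd1, a Ras-related GTPase first described as induced by dexamethasone, had log2 values of 6.65, 6.77 and 6.81 with forskolin and AICAR, 6.63, 6.76 and 6.72 with forskolin, and 6.61, 6.69 and 6.54 in control. The 3 groups overlapped. The forskolin difference was 0.09 (SE 0.06, 95% interval −0.04 to 0.22, limma adjusted p = 0.85), an interval that reaches to a level 1.17-fold above control. Forskolin with AICAR against control gave 0.13 (SE 0.06, limma adjusted p = 0.16).

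**Figure D1:**
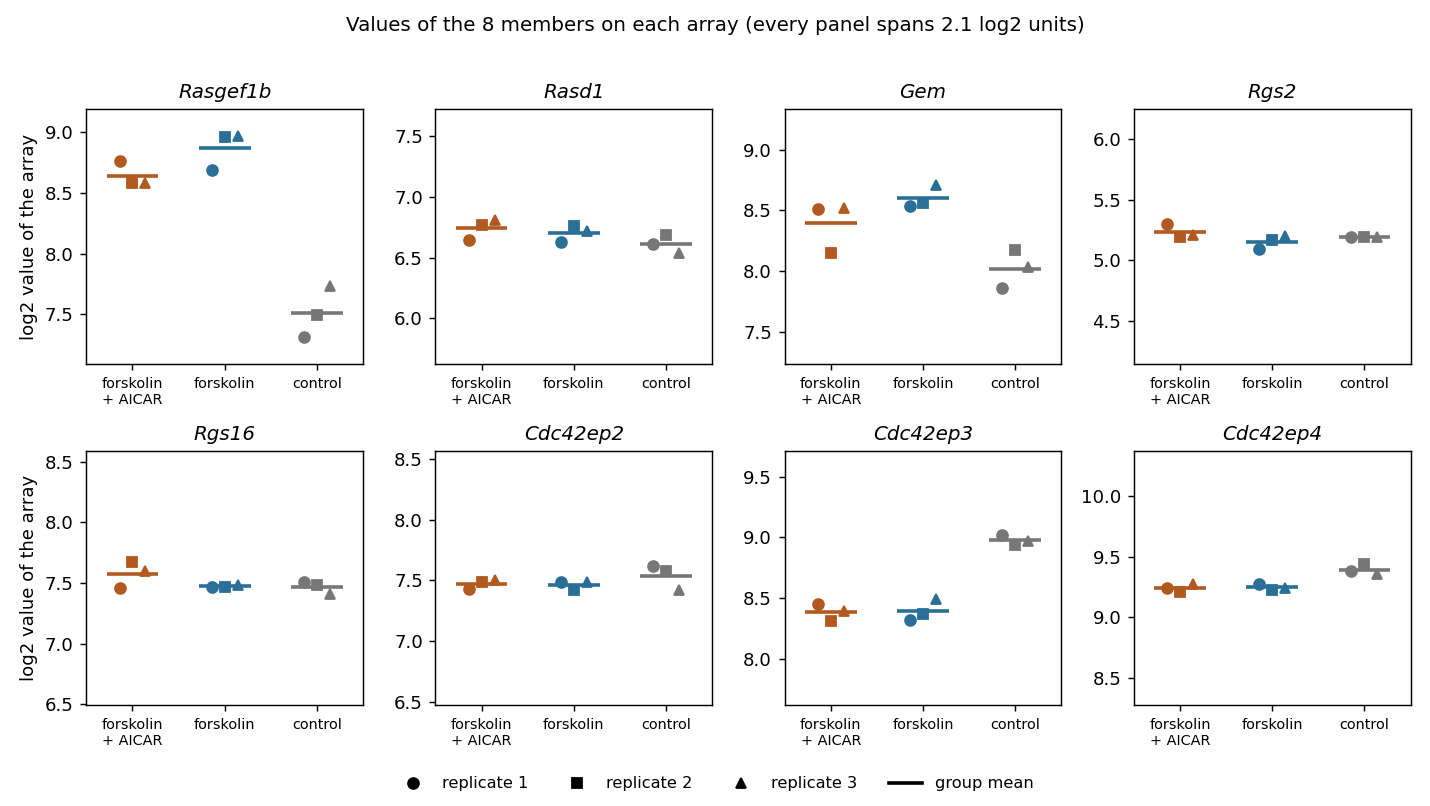
Log2 values of the 8 genes on each array, in panels of equal height, for forskolin with AICAR, forskolin and control (3 arrays each, symbols for replicate numbers, bars for group means). Rasgef1b and Gem stood higher on all forskolin arrays than on all control arrays, Cdc42ep3 and Cdc42ep4 stood lower, and Rasd1, Rgs2, Rgs16 and Cdc42ep2 overlapped.

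Among the RGS genes neither member passed the test in any comparison. Rgs2, whose protein speeds GTP hydrolysis by the Gq alpha subunit, had a dim probe, with log2 values of 5.30, 5.19 and 5.21 with forskolin and AICAR, 5.09, 5.17 and 5.20 with forskolin, and 5.19, 5.19 and 5.19 in control. All 9 values lay below the array medians, and the groups overlapped. The forskolin difference was −0.04 (SE 0.04, 95% interval −0.14 to 0.06, limma adjusted p = 0.94). Its promoter is the one printed above with 2 cores. AICAR added to forskolin gave a difference of 0.08 (SE 0.04, limma adjusted p = 0.27).

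Rgs16, which acts on Gi and Gq alpha subunits, had log2 values of 7.46, 7.67 and 7.60 with forskolin and AICAR, 7.47, 7.47 and 7.48 with forskolin, and 7.51, 7.48 and 7.41 in control. AICAR replicates 2 and 3 were above all forskolin and control arrays, and AICAR replicate 1 was among them. The forskolin difference was 0.01 (SE 0.05, 95% interval −0.12 to 0.13, limma adjusted p = 0.996). Forskolin with AICAR was 0.10 above forskolin (SE 0.05, limma adjusted p = 0.27) and 0.11 above control (adjusted p = 0.21). Without AICAR replicate 1 both differences were 0.16 and passed (limma adjusted p = 0.042 and 0.029), and both passed with array weights (0.012 and 0.017). Many other genes passed there too. Of all 19938 genes, 3324 and 4741 were called without AICAR replicate 1, and 5729 and 6619 with array weights. In the other 18 of 20 alternatives neither difference of Rgs16 passed, with limma adjusted p of up to 0.57 and 0.48.

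The 3 Cdc42 effector proteins, also called Borg proteins, bind GTP-bound Cdc42 and septins, which form filaments at the cell cortex. Cdc42ep3 had log2 values of 8.45, 8.31 and 8.39 with forskolin and AICAR, 8.32, 8.37 and 8.49 with forskolin, and 9.02, 8.94 and 8.97 in control. All 6 arrays that received forskolin were below all 3 controls, and the 2 treated groups overlapped almost fully. The forskolin mean was 8.39 ± 0.09 against 8.98 ± 0.04 in control (SD, n = 3 each), a log2 difference of −0.59 (SE 0.05), the second lowest of 19938. With AICAR the difference from forskolin was 0.00 (SE 0.05) and that from control −0.59 (SE 0.05), values that share arrays with the choice of the gene and carry no test. In bulk RNA, less transcript per cell and fewer cells with the transcript cannot be told apart.

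Cdc42ep4 had log2 values of 9.24, 9.21 and 9.28 with forskolin and AICAR, 9.28, 9.23 and 9.24 with forskolin, and 9.38, 9.44 and 9.36 in control. Both treated groups lay wholly below control, by a small margin. Forskolin against control gave a log2 difference of −0.15 (SE 0.04, 95% interval −0.23 to −0.06, limma adjusted p = 0.22). That difference passed with array weights (limma adjusted p = 0.024) and in none of the other 19 of 20 alternatives, with adjusted p of up to 0.6. Forskolin with AICAR was 1.11-fold lower than control (log2 difference −0.15, SE 0.04, limma adjusted p = 0.04). That call was lost without any 1 control array, any 1 forskolin array or AICAR replicate 2 (adjusted p from 0.052 to 0.13), with the replicate block (0.1), and with quantile normalization, where the difference was −0.09 (adjusted p = 0.2). AICAR made a difference of −0.01 from forskolin (95% interval −0.09 to 0.08, limma adjusted p = 0.92).

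Cdc42ep2 had log2 values of 7.43, 7.49 and 7.50 with forskolin and AICAR, 7.49, 7.42 and 7.49 with forskolin, and 7.62, 7.58 and 7.42 in control. Control replicates 1 and 2 were the highest of the 9 arrays and control replicate 3 was slightly below all 6 treated arrays, so the groups overlapped. The forskolin difference was −0.07 (SE 0.05, 95% interval −0.19 to 0.05, limma adjusted p = 0.90), a lower bound of 0.876-fold. For Cdc42ep3 the forskolin level was 1.5-fold lower than control. A difference between these paralogs was not tested, since Cdc42ep3 was picked for its fall.

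Over the 6 tested genes, limma called 0 with forskolin against control, with 2 (Gem and Cdc42ep4) at an unadjusted p under 0.05, where 0.692% of all genes were called and 7.27% had such a p. The arrays of the 2 groups did not overlap for the same 2 of 6, where 14% of all genes did not overlap. Forskolin with AICAR against forskolin called 0 of 6, with 0 at an unadjusted p under 0.05, where 5.1% of all genes were called and 24.1% had such a p, and the arrays of 1 of 6 (Gem) did not overlap, where 23.6% did not. Forskolin with AICAR against control called 1 of 6 (Cdc42ep4, lower), where 8.72% of all genes were called and 5.68% were called lower. It had 2 of 6 at an unadjusted p under 0.05 (Gem and Cdc42ep4), where 31.1% of all genes did, and the arrays of 1 of 6 (Cdc42ep4) did not overlap, where 29.5% did not. At these background shares, fewer than 1 of 6 genes would be called in each comparison. The median log2 difference of all 8 was −0.02 for forskolin against control, 0.00 for forskolin with AICAR against forskolin and 0.07 for forskolin with AICAR against control, beside medians of 0.00, 0.02 and 0.02 over all genes. These comparisons share arrays, so their values stand side by side and do not count as separate evidence.

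**Figure D2:**
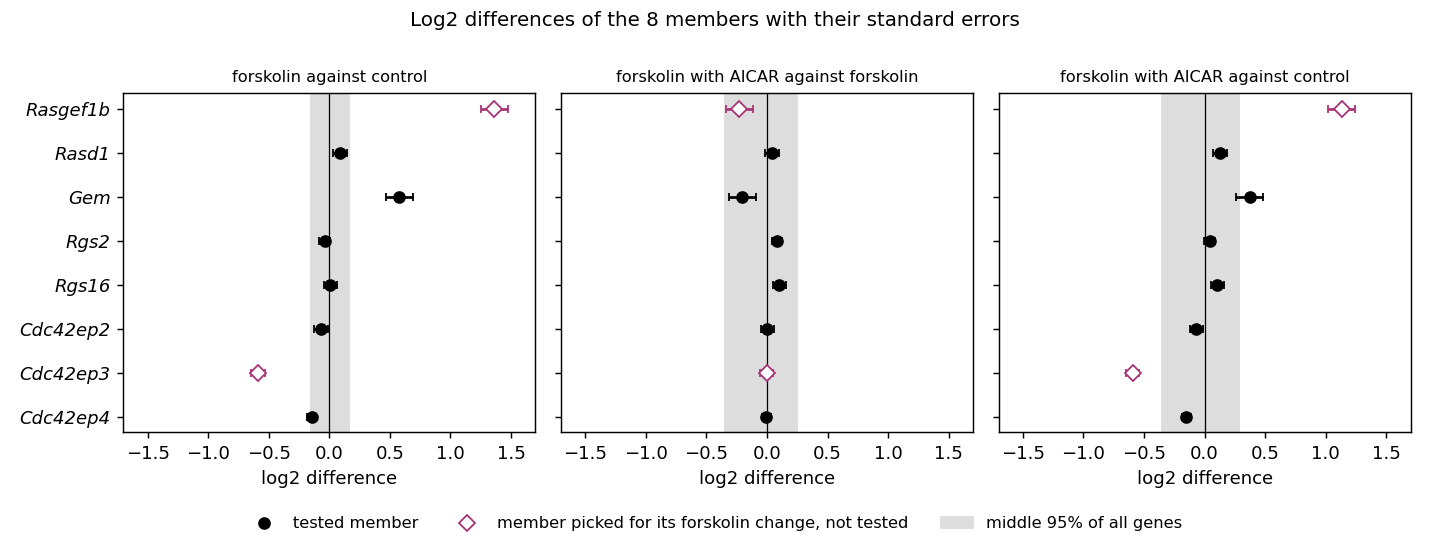
Log2 differences of the 8 genes in the 3 comparisons (points with standard errors, open diamonds for the 2 genes picked for their forskolin change, grey bands for the middle 95% of all genes). With forskolin, Rasgef1b, Gem and Cdc42ep3 lay outside the band of −0.15 to 0.16, and with AICAR added to forskolin all 8 lay inside the band of −0.35 to 0.25.

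Of the other 19937 genes, the 3 nearest to Rasgef1b over the 9 arrays, by root mean square distance after each gene's control mean was subtracted, were Fosb (distance 0.202 log2 units), Slc25a25 (0.391) and Dusp16 (0.403). Fosb encodes an AP-1 subunit, Slc25a25 a mitochondrial ATP-magnesium carrier and Dusp16 a MAP kinase phosphatase. Fosb was 1.15 above control with forskolin and 0.97 above it with forskolin and AICAR, beside 1.36 and 1.13 for Rasgef1b. Slc25a25 and Dusp16 were 1.03 and 0.90 above control with forskolin and 0.58 and 0.65 with forskolin and AICAR.

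The genes nearest to Cdc42ep3 were Inhba, which encodes a subunit of activin and inhibin (distance 0.117 log2 units), Strip2 (0.131) and the phospholipase gene Pla2g4c (0.139). With forskolin they differed from control by −0.47, −0.42 and −0.45, and with forskolin and AICAR by −0.56, −0.46 and −0.58. The AICAR difference from forskolin was −0.09, −0.04 and −0.13 for these 3 genes, beside 0.00 for Cdc42ep3. Likeness here is a description of 9 arrays.

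**Figure D3:**
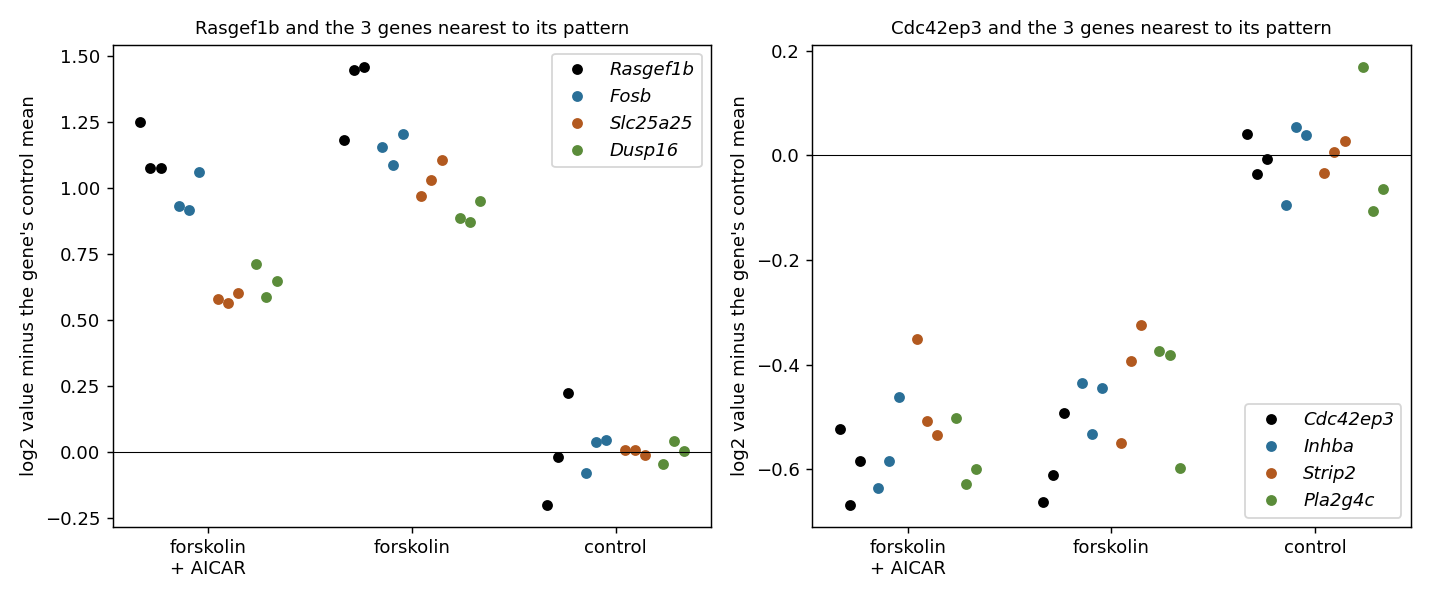
Log2 values minus each gene's control mean for Rasgef1b and Cdc42ep3 with the 3 genes nearest to each (points are arrays, 3 per group). Fosb followed Rasgef1b most closely, at 0.97 above control with forskolin and AICAR, while Slc25a25 and Dusp16 were lower there, and Inhba, Strip2 and Pla2g4c stayed below control in both treated groups.

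Around the 8 genes, 119 others of 129 listed were measured in 8 lists covering Ras and Rap exchange factors, their GTPase-activating proteins and GTPases, RGK GTPases with calcium channel beta subunits, other RGS proteins, G protein alpha subunits, Cdc42 with its other effectors, and septins. With forskolin against control limma called 0 of 119, with 11 (9.24%) at an unadjusted p under 0.05, where 0.692% of all genes were called and 7.27% had such a p. Rgs3, an RGS protein, had log2 values of 8.44, 8.43 and 8.50 with forskolin and 8.77, 8.77 and 8.58 in control. The groups did not overlap (log2 difference −0.25, SE 0.06, limma adjusted p = 0.11). Rgs3 passed with array weights (−0.29, adjusted p = 0.0056) and without control replicate 3 (−0.32, adjusted p = 0.028), and not in the other 18 of 20 alternatives. With the mean of all its probes the difference was −0.16 (adjusted p = 0.23). The nearest to a call in the RGK list was Rrad, a relative of Gem, at 0.19 (SE 0.06, limma adjusted p = 0.40), and among exchange factors Rapgef3, which cAMP binds and activates, at 0.20 (adjusted p = 0.51). In the remaining lists the nearest were Ralb (−0.11, limma adjusted p = 0.41), Cdc42se1 (−0.11), Rasa2 (0.12), Gnaz (0.10) and Septin1 (0.13).

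Forskolin with AICAR against forskolin called 5 of the 119 (4.2%), Rapgef2 higher and 4 lower, where 5.1% of all genes were called. Rasa2, a Ras GTPase-activating protein, had log2 values of 7.37, 7.07 and 7.19 with forskolin and AICAR and 7.61, 7.56 and 7.66 with forskolin. Its groups did not overlap, and the level fell by 0.40 on the log2 scale (SE 0.07, limma adjusted p = 0.01), a call lost without forskolin replicate 3 (adjusted p = 0.053). The calls of Axin2 (−0.28), Rapgef2 (0.23), Rgl3 (−0.20) and Baiap2 (−0.17) were each lost without AICAR replicate 2 and without at least 2 other single arrays, with adjusted p of up to 0.16.

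Forskolin with AICAR against control called 7 of the 119 (5.88%), 2 higher and 5 lower, where 8.72% of all genes were called. The RGS gene Rgs4 had log2 values of 5.90, 5.99 and 5.93 with forskolin and AICAR, 5.81, 5.76 and 5.78 with forskolin, and 5.61, 5.73 and 5.65 in control. The 3 groups did not overlap, and the difference from control was 0.28 (SE 0.04, limma adjusted p = 0.0057). All of these values lay below the array medians, as for Rgs2, and Rgs4 was not called in the other 2 comparisons. Axin2, whose product holds an RGS domain, was lower by a log2 difference of −0.33 (SE 0.06, adjusted p = 0.0086). Both calls held without any single array (limma adjusted p up to 0.029 for Rgs4 and 0.041 for Axin2).

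The Borg relative Cdc42ep1 had log2 values of 7.49, 7.46 and 7.57 with forskolin and AICAR, 7.63, 7.66 and 7.77 with forskolin, and 7.66, 7.91 and 7.87 in control. It was 1.24-fold lower with forskolin and AICAR than in control (log2 difference −0.31, SE 0.07, limma adjusted p = 0.027), a call lost without control replicate 2, control replicate 3 or AICAR replicate 2, with adjusted p reaching 0.11. The calls of Rasa2 (−0.28), Rasl11a (−0.28), Rgs3 (−0.26) and Septin1 (0.19) were each lost without AICAR replicate 2 and, except Rasl11a, without at least 3 other single arrays, with adjusted p of up to 0.14. Rgs3 was also lost with the mean of all its probes (−0.16, adjusted p = 0.052). No G protein alpha subunit, RGK or calcium channel beta subunit gene passed in any comparison.

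**Figure D4:**
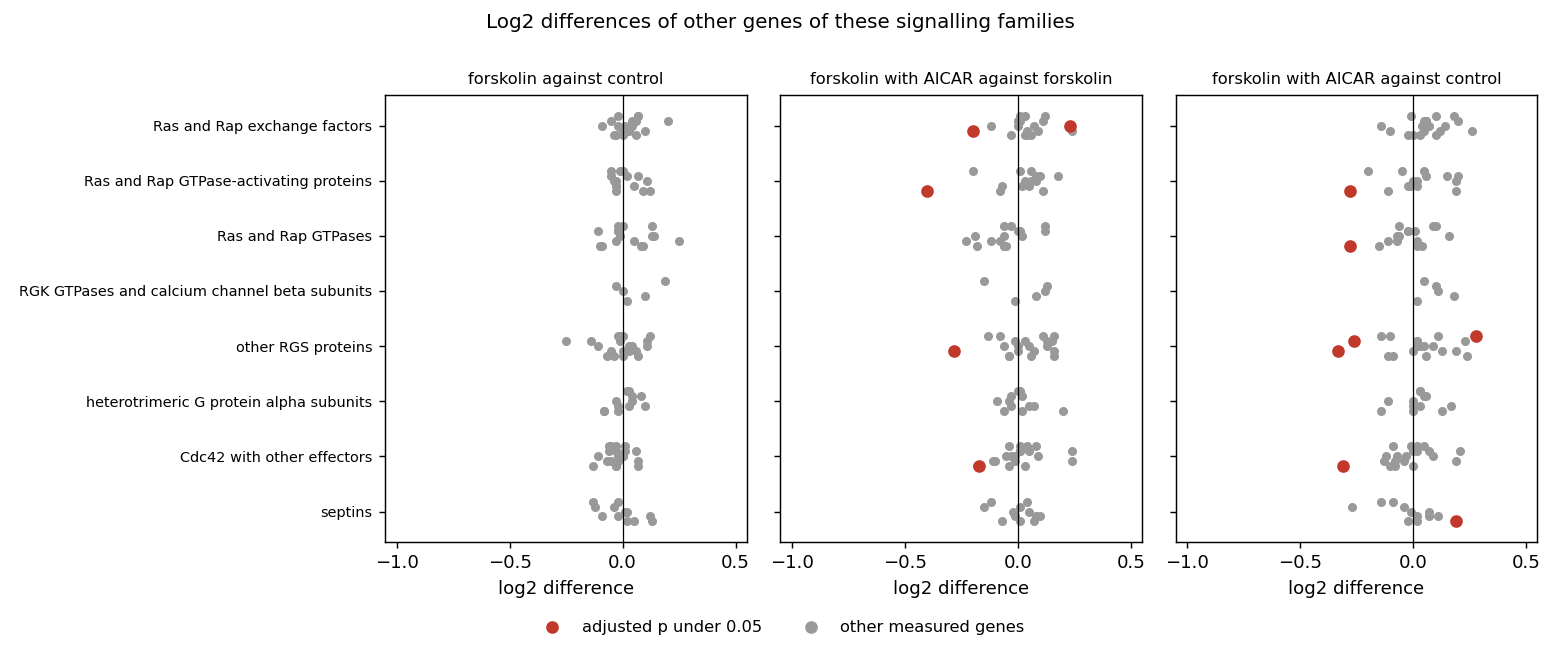
Log2 differences of 119 other genes in the 8 lists for the 3 comparisons (points are genes, red where the limma adjusted p was under 0.05). No gene was called with forskolin against control, 5 with AICAR added to forskolin and 7 with forskolin and AICAR against control.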

How the data were processed

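The authors deposited log2 expression values per probe (transcript cluster) of Affymetrix arrays, made with RMA and Partek per the submitters' processing notes. Versions and settings are not given in the sources used here. No unit was changed. Of 35557 probes, the 21789 with 1 gene symbol were used, at the brightest probe of a gene over all arrays, which gave 19938 genes with no filter on dim probes. One linear model over the 9 arrays was fitted in limma 3.58.1 (R 4.3.3), and its two-sided moderated test was corrected after Benjamini and Hochberg across all 19938 genes, with calls at an adjusted p under 0.05. The fit was tested on simulated data with independent errors of equal spread on every array. That setting lacks the unequal array weights and repeated values of these data. Control samples carry DMSO in the treatment label but are titled as untreated, and were used as vehicle controls. Replicate numbers of the titles were not used to pair the arrays in the main model, and whether they mark pairs is not known. Older symbols were matched through the GRCm38.p6 RefSeq table.

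The members, lists and tests were chosen with earlier results of these data known. From each list, up to 3 called genes per comparison with the largest difference were to be named, or the one with the smallest p. A further list of genes is not reported here. Figures were made with Python 3.11.15 and matplotlib 3.10.9. The number of arrays limits the precision.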

Additional observations from a re-analysis of the deposited data

How the results depend on the processing

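All 20 alternatives were set beside the results for the 6 tested genes, and no called difference turned its direction. The count called with forskolin against control, 0, was 1 with quantile normalization, with a trended and robust prior or at an adjusted p under 0.10. It was 2 with array weights, where 436 of all 19938 genes were called, and 0 to 1 without single arrays. With AICAR added to forskolin, 0 became 2 with array weights, where 5729 of all genes were called, and was 0 to 1 without single arrays. With forskolin and AICAR against control, 1 became 0 with the replicate block, with only the 2 groups compared or at an adjusted p under 0.01. The count was 2 with a trended and robust prior, with array weights (6619 of all genes called) or at an adjusted p under 0.10, and 0 to 2 without single arrays. Quantile normalization kept that count at 1 through a rise of Gem (0.44, limma adjusted p = 0.038) in place of the fall of Cdc42ep4. It also moved Cdc42ep3, which was not tested, by more than 1 SD, to 0.07 from forskolin and −0.52 from control with AICAR. Over all genes the counts of 138, 1017 and 1739 in the 3 comparisons became 83, 583 and 874 with the replicate block, 436, 5729 and 6619 with array weights, and 72, 409 and 502 at an adjusted p under 0.01. At an adjusted p under 0.10 the counts of the 2 AICAR comparisons were 1820 and 3756, and with only the 2 groups compared 496 and 758. Without single arrays they ranged from 76 to 144, 487 to 3324 and 660 to 4741, with the highest always without AICAR replicate 1. The split of 195 higher and 822 lower with AICAR added to forskolin was 454 and 638 after quantile normalization and 359 and 655 after median centring, and that of 99 and 39 with forskolin was 86 and 61 after median centring. Same-numbered arrays correlated in their deviations at r from −0.41 to 0.33, over 0.1 in 2 of 9 pairs, and 0 of 9 arrays correlated best with their own number. The replicate block changed no other call of the 6 genes, and the cause of the other changes was not tested. Background signal was not analysed here, so what dim probes such as that of Rgs2 could show is unknown.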

Other observations

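Of 6 measured Sertoli cell markers 1 was called, Sox9, lower with forskolin and AICAR by 0.46 on the log2 scale than with forskolin and by 0.56 than in control (limma adjusted p = 0.0013 and 0.00043). The other 5 were not called in any comparison, with log2 differences from −0.07 to 0.24 against forskolin and from −0.17 to 0.28 against control. Of 5 macrophage markers 1 was called, Cd68, with log2 differences of −0.39 from forskolin and −0.28 from control with AICAR (limma adjusted p = 0.0068 and 0.026), and the other 4 were not called, with differences from −0.05 to 0.16. No germ cell or endothelial marker was called. The part of these markers in the results above was not tested.

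Many deposited values repeat within a group. Of 19938 genes, 7116 (35.7%) had 2 identical values among the 3 arrays of at least 1 group, and 3 of the 8 genes described above were among them, Rasgef1b, Rgs2 and Cdc42ep2. How the repeats came about was not tested.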
